A study of Mus musculus with 33 samples.

Results

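The regions described here are 19427 peaks of open chromatin that the list of E13.5 control endothelium held and that touched, by at least 1 bp, no peak of the E9.5 control list and no peak of the adult liver control list. They made up 20.12% of the 96537 peaks in the E13.5 Ctrl list. The 9 lists of the series together held 689119 regions. Of the other E13.5 Ctrl peaks, 47777 (49.49%) also touched an E9.5 Ctrl peak only, 1889 (1.957%) a liver Ctrl peak only, and 27444 (28.43%) a peak at both other stages. The regions were chosen by the measured ATAC peaks of the 3 Ctrl lists, so their absence from the E9.5 Ctrl and liver Ctrl lists is the rule and not a finding. They are called E13.5-only peaks below, and the name refers to the 3 Ctrl lists. Of these regions, 3946 (20.31%) touched a peak of E9.5 1Runx1 or Liver 2Runx1, so the name does not hold across all 7 ATAC lists.

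The cells were mouse endothelium, sorted as CD41-CD45-Ter119-CD31+VEC+ with low to positive cKIT, taken from the whole fetus (E13.5), the whole embryo (E9.5) or the liver of adults of 4 to 6 weeks. A conditional Runx1 knock-in allele (CKI) was switched on by Cre: 2Runx1 carried Cre with both CKI copies, 1Runx1 carried Cre with 1 CKI copy, and Ctrl carried CKI alleles with no Cre named. Ctrl was labelled CKI/CKI or CKI/+ at E13.5 and in liver, and CKI/+ at E9.5, and the driver of Cre was not given in the sources used here. All groups received 2 mg tamoxifen: for the embryos the pregnant female was dosed 24 hours ahead of harvest, and for liver the drug was given by gavage at an interval not stated. The strain was a C57BL/6J and 129Sv/J mix, to which the E9.5 matings added B6C3F1 and superovulation with hormones, so stage, tissue and cross cannot be told apart. ATAC-seq, which cuts open DNA with a transposase, was made on 50000 sorted cells in 2 libraries per group. RNA-seq had 2 libraries per group except E13.5 Ctrl, which had 1. H3K4me1, a histone mark of enhancers and promoter flanks, was measured in E13.5 Ctrl and E13.5 2Runx1. Whether replicates are separate animals or litters is not said in the labels, so a p-value here reflects the spread between the libraries at hand, which may be technical. The 2 RNA libraries of E13.5 1Runx1, however, differed in sex by the Xist and Ddx3y levels given below.

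Between E9.5 and E13.5 the embryonic vasculature turns from a simple network into vessels fitted to their organs. Arteries, veins and the first lymphatic vessels are separated, brain vessels acquire transporters under Wnt signals, and liver sinusoids acquire scavenger receptors. Such changes are commonly written in distal enhancers, stretches of DNA that open when transcription factors bind, often far from the gene they act on. ETS proteins such as Erg, Fli1 and Ets1 bind a GGAA core in most endothelial enhancers, and FOX, SOX, GATA and E-box proteins bind beside them.

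A set of 5 promoters (RefSeq, GRCm38.p6) is printed because an E13.5-only peak covered at least 200 of their 300 bases, the same peak was in both E13.5 Runx1 lists, and the RNA of the gene was higher at E13.5 than at E9.5. They were chosen after these values were seen. Of 10 promoters that met these conditions, 5 are not printed: 3 belong to genes whose log2 difference was 1 or less, 1 held neither the ETS nor the FOX letters, and 1 is that of Gm525, a gene model with no role given here. So a match in every printed promoter is part of how they were chosen. Each runs 5′ to 3′ from 250 bases before the gene's start to 50 bases after it. In the top 4, capitals mark the ETS letters CAGGAAG or their reverse complement. In Abcb1a, capitals mark the letters of a FOX site, TGTTTAC, or their reverse complement.
Itih3, chr14:30923538-30923837, minus strand: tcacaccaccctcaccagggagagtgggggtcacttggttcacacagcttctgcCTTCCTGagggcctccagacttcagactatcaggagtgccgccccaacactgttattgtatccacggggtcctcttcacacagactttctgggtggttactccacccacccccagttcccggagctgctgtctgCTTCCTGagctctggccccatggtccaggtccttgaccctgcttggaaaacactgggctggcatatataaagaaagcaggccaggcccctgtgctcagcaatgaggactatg
Btnl9, chr11:49187040-49187339, minus strand: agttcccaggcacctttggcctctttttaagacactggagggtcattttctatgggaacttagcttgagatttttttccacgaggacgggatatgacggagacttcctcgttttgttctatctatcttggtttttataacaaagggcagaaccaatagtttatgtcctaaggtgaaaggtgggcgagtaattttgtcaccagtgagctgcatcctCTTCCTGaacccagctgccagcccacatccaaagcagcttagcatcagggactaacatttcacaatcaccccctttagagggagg
Lrg1, chr17:56121897-56122196, minus strand: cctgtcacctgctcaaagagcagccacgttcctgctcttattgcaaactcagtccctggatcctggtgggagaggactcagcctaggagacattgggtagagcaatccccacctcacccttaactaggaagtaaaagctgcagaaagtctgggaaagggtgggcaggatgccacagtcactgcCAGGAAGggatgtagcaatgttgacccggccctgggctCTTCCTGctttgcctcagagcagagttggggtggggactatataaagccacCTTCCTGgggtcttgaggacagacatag
Mrc1, chr2:14229164-14229463, plus strand: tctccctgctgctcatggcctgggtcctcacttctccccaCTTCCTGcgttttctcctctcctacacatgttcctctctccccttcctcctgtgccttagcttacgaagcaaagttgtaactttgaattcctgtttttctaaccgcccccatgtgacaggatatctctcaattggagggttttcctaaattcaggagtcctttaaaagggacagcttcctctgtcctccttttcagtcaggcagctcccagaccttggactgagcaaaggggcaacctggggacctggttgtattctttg
Abcb1a, chr5:8566841-8567140, plus strand: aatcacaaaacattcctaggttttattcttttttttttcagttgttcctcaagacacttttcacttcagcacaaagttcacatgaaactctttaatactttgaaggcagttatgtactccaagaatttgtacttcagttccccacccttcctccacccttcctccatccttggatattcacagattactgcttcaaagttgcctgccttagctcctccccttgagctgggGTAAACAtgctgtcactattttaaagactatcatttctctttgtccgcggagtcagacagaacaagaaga
Every match in capitals lay inside the peak: 3 in Lrg1, 2 in Itih3 and 1 in each of the others.

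The E13.5-only peaks were narrow and weak beside the rest of their list. Their median width was 171 bp (quartiles 128 and 250 bp), against 283 bp for peaks shared with E9.5 only, 222 bp for peaks shared with liver only and 594 bp for peaks of all 3 stages. The median −log10 q, the peak caller's evidence for a peak, was 5.758 in E13.5-only peaks, 15.84 in peaks shared with E9.5, 8.992 in peaks shared with liver and 92.44 in peaks of all 3 stages. The median fold enrichment over background ran in the same order, at 4.16, 6.478, 4.992 and 13.99. These peak values are the authors', from lists that pool the replicates of a group, so they are described here with no test, and the read depth behind them is unknown.

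Few members sat at the edge of the rule. The nearest E9.5 Ctrl or liver Ctrl peak lay a median 3785 bp away (quartiles 1076 and 10120 bp). It was closer than 50 bp for 128 members and closer than 500 bp for 2796 (14.39%), and 4926 (25.36%) stood 10000 bp or more from any such peak. On the other side, 63 of the 77110 shared peaks met the other list over at most 10 bp and 398 over at most 50 bp. The members within 500 bp had a median −log10 q of 4.951, and those 10000 bp or more away had 6.457. The number of members depended strongly on how deep each list reached: with only the 39019 highest-scoring peaks of each Ctrl list, 4411 peaks (11.3%) were E13.5-only, and 642 of these were among the 19427.

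Of the 10 highest-scoring members, 9 are given here, and they lay near genes of varied function. The top peak was at chr6:31011275-31012084, 52.6 kb from the start of Klf14, a zinc-finger transcription factor, with a −log10 q of 133.3 and a fold enrichment of 24.86. A peak at chr2:174599111-174599722 stood 0.821 kb from the start of Zfp831 (−log10 q 119.4, fold enrichment 6.297). It lay 389 bp from the nearest E9.5 Ctrl or liver Ctrl peak. Others were in the gene bodies of Rab11fip5 (chr6:85368980-85369713), which acts in endosome recycling, of Colq (chr14:31569278-31569633), the collagen tail of acetylcholinesterase, and of Nfatc1 (chr18:80631441-80631948), a transcription factor of endocardium and valves. Other peaks were near Lxn (chr3:67450533-67451202), Plekhg4 (chr8:105378605-105379130), Gm5148 (chr3:38015764-38016301) and Dctd (chr8:48114544-48114913). All 9 were also in both E13.5 Runx1 lists and none was in the Liver 2Runx1 list. The peak at Rab11fip5 was also in the E9.5 1Runx1 list, and 7 of the 9 met an E13.5 Ctrl H3K4me1 region.

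The other lists of the series, which the rule did not use, show how far the same regions were called again at E13.5. Of the members, 63.13% (Wilson 95% interval 62.45 to 63.81%) touched a peak of E13.5 1Runx1 and 37.92% (37.24 to 38.61%) a peak of E13.5 2Runx1. Only 18.4% (17.86 to 18.95%) touched a peak of E9.5 1Runx1 and 2.641% (2.424 to 2.876%) a peak of Liver 2Runx1. These intervals cover counting error only. Peaks shared with E9.5 met the same lists far more often: 90.72% were in E13.5 1Runx1, 80.16% in E13.5 2Runx1 and 88.9% in E9.5 1Runx1, while 7.642% were in Liver 2Runx1. The E13.5 2Runx1 list was the shorter of the pair, with 80857 peaks against 100268 for E13.5 1Runx1, and how far list length sets the gap between 63.13% and 37.92% was not tested. The liver lists were shorter still, with 39469 peaks in Liver 2Runx1 and 39019 in Liver Ctrl, which the rule used. How far the length of the Liver 2Runx1 list sets the 2.641% was not tested either.

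**Figure D1:**
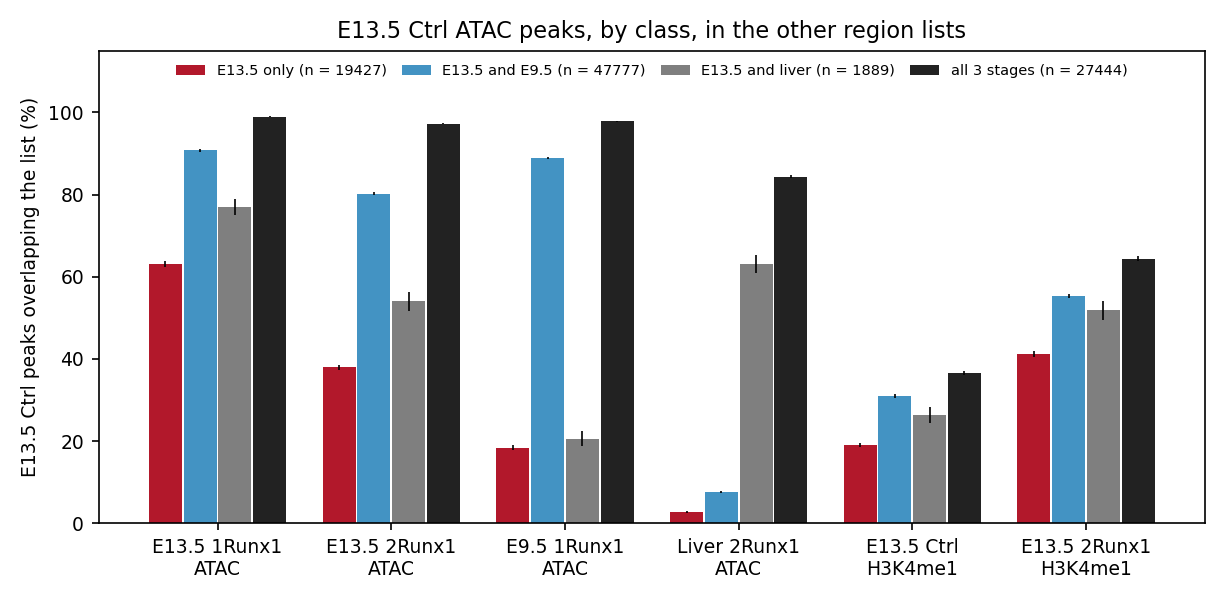
Share (%) of the E13.5 Ctrl peaks of each class that touched, by at least 1 bp, a peak or region of 6 lists that the rule did not use, with 95% Wilson intervals as error bars. The E13.5-only class is at 63.13% in E13.5 1Runx1, 37.92% in E13.5 2Runx1, 18.4% in E9.5 1Runx1 and 2.641% in Liver 2Runx1, and the peaks of all 3 stages are the highest class in every list.

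The strength of a member went with how often it was called again at E13.5, and in smaller steps with how often it was called at E9.5. Among members with a −log10 q under 2, 19.04% were in the E13.5 1Runx1 list, and the share was 41.94% from 2 to 5, 69.97% from 5 to 10, 90.82% from 10 to 20, 99.26% from 20 to 50 and 100% of the 123 members above 50. In the E13.5 2Runx1 list the same steps gave 12.44%, 19.95%, 37.58%, 63.09%, 93.7% and 100%. In the E9.5 1Runx1 list they gave 10.41%, 14.97%, 19.71%, 23.03%, 23.24% and 21.14%. Peaks shared with E9.5 followed another course in that E9.5 list, with 65.84% under 2 and 99.09% above 50. From 10 to 20, for example, 90.82% of members and 97.02% of peaks shared with E9.5 were in the E13.5 1Runx1 list, and 23.03% and 88.83% were in the E9.5 1Runx1 list. E9.5 1Runx1 carried added Runx1 and the E9.5 Ctrl list chose the members, so this comparison holds stage together with the rule's own choice of a background list.

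**Figure D2:**
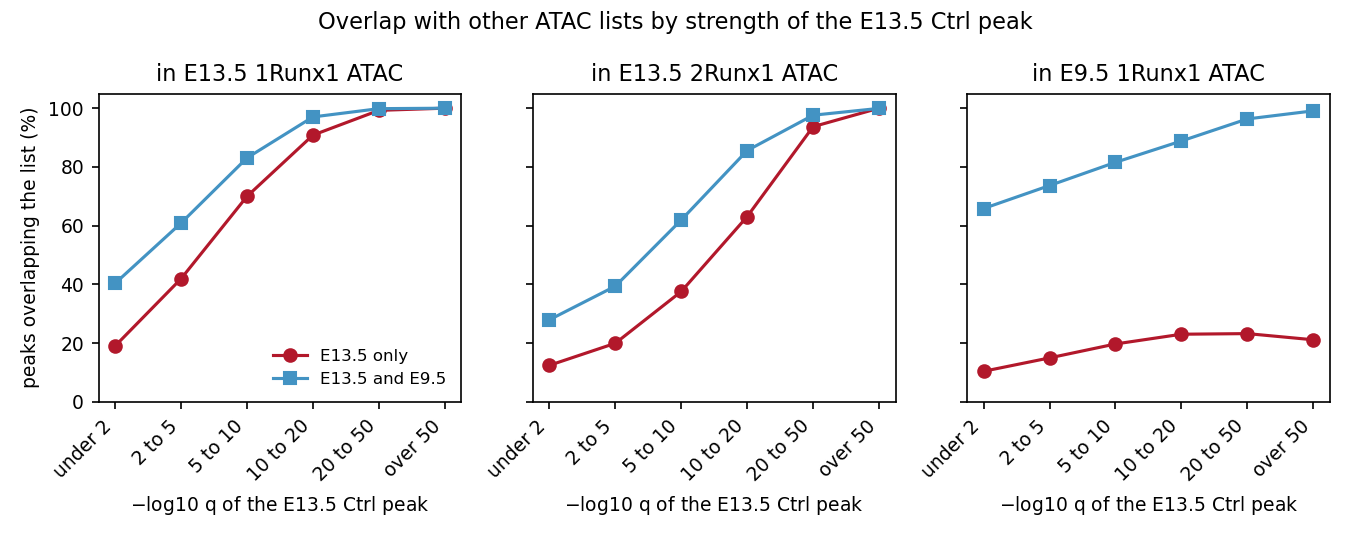
Share (%) of peaks that touched a peak of each list, by the peak's own −log10 q in the E13.5 Ctrl list, for E13.5-only peaks and for peaks shared with E9.5. In the E13.5 1Runx1 list E13.5-only peaks climb to 100%, and in the E9.5 1Runx1 list they stay between 10.41% and 23.24%.

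A core of the members recurred in the E13.5 lists. Both E13.5 Runx1 lists held 6519 members (33.56%), the 1Runx1 list alone 5746 (29.58%), the 2Runx1 list alone 848 (4.365%), and neither list 6314 (32.5%). The 6519 had a median −log10 q of 9.882 and a median width of 248 bp, against 4.154 and 138 bp for the 6314. Of all members, 4558 (23.46%) were in both E13.5 Runx1 lists and in neither the E9.5 1Runx1 nor the Liver 2Runx1 list, and 5551 (28.57%) were in no other ATAC list. H3K4me1 regions of E13.5 Ctrl met 18.98% of the members, against 30.99% of peaks shared with E9.5 and 36.53% of peaks of all 3 stages. Within the members the mark met 1171 of the 4558 (25.69%) and 909 (14.4%) of the 6314 found in neither Runx1 list. The E13.5 2Runx1 regions, from a list of 88344 against 48795 in Ctrl, met 41.2% of the members. In 2Runx1 the labels of the input and of a ChIP library appear exchanged, so that list is in doubt.

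Most members were distal. Only 638 (3.284%) lay within 1 kb of a gene start, against 10.36% of peaks shared with E9.5, 3.441% of peaks shared with liver and 37.63% of peaks of all 3 stages. The median distance was 32.88 kb, against 24.07 kb for peaks shared with E9.5, 34.01 kb for peaks shared with liver and 7.521 kb for peaks of all 3 stages. A further 22.91% stood over 100 kb from any start, and 55.96% lay inside a gene body, close to the 55.67% of peaks shared with E9.5. By chromosome, the members' share of the E13.5 Ctrl list ran from 16.98% on chromosome 7 to 22.96% on chromosome 18, and it was 19.86% on the X.

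Members were spread over the genome, with more in some windows than in others. Of 2440 windows of 1 Mb with any E13.5 Ctrl peak, 2230 held a member, with a median of 7. The richest window, at chr7:132000001-133000000, held 40 of its 108 E13.5 Ctrl peaks, with 12 nearest to Chst15, a sulfotransferase of chondroitin chains, and 8 nearest to Fam53b. A window at chr14:121000001-122000000 held 37 among 132 E13.5 Ctrl peaks, with 10 each nearest to Dock9 and Farp1, regulators of small GTPases. A window at chr8:120000001-121000000 also held 37, but among 160 E13.5 Ctrl peaks, and 20.12% of the whole list were members. Of these 37, 11 were nearest to Irf8, a transcription factor of myeloid cells, and 3 to Foxf1, a transcription factor of vessels around gut and lung. By nearest start, 7838 of the 20834 protein-coding genes (37.62%) had at least 1 member, 2451 (11.76%) had 3 or more and 185 had 10 or more.

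At gene starts, the members met promoters of another make than the remaining peaks. An E13.5-only peak, and no other E13.5 Ctrl peak, met 310 of 32851 RefSeq promoter windows, and these had a median GC of 51% and 5 CpG pairs. The 15086 promoters met by other E13.5 Ctrl peaks had 61.67% and 21 CpG pairs, and all promoters had 52.67% and 7. Those other peaks were not split by class. Within 1 kb of a gene start they were 10326 peaks of all 3 stages, 4952 shared with E9.5 and 65 shared with liver.

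Short motifs were counted in these windows, and the members' promoters were set beside 3 groups: promoters met by other E13.5 Ctrl peaks, the 17442 promoters met by no E13.5 Ctrl peak, and all promoters. The ETS letters CAGGAAG were in 86 of the 310 (27.74%), against 12.48% of promoters met by other peaks, 13.7% of promoters met by no peak and 13.27% of all promoters. The E-box CAGCTG was in 25.48%, against 15.72%, 16.64% and 16.3% in the same order. The composite FOX:ETS letters AACAGGAA, which share bases with the ETS letters, were in 5.806%, against 2.207%, 2.97% and 2.645%. The STAT letters TTCCNNGAA were in 26 of the 310 (8.387%), against 4.249%, 5.229% and 4.813%, and the MEF2 letters CTATTTATA were in 6 (1.935%), against 0.3314%, 0.4644% and 0.4292%. For these 5 motifs the members' promoters had the highest share of the 4. The same held for the E-box CAGATG, the FOX letters and the SMAD half-site, given below, and for some motifs not named here.

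For another 6 motifs the members' promoters were above those met by other peaks and closer to those met by no peak. The E-box CAGATG was in 29.68% of the 310, against 11.1% of promoters met by other peaks, 22.18% of promoters met by no peak and 17.15% of all. The FOX letters TGTTTAC were in 5.161%, against 2.38%, 4.696% and 3.65%. The RUNX letters TGTGGT were in 62 of the 310, against 11.71%, 21.08% and 16.76%, and the SMAD half-site CAGACA, which is relevant to TGFβ signalling, was in 26.77%, against 15.56%, 25.69% and 21.04%. The GATA letters AGATAA were in 11.61%, against 5.86%, 15.77% and 11.18%, and the AP-1 letters TGANTCA in 8.065%, against 4.852%, 10.34% and 7.808%. Letters of GC-rich promoters were rarer than in all promoters: the SP letters GGGGCGGGG were in 3.548%, against 21.83%, 2.597% and 11.45%, and the NF-Y letters CCAATC in 8.387%, against 19.83%, 13.04% and 16.11%. Both strands were searched for 28 motifs, of which these are 13, named after the counts were seen. The groups differ in base composition, a match is a string of letters and not a site, and how far composition sets these shares was not tested.

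The genes of these promoters were read in the RNA, which the rule did not use. In this bulk RNA, fewer cells of a type and less RNA per cell cannot be told apart. Of 132 protein-coding genes with a start met by a member, 69 passed the filter of 1 RPKM in at least 2 libraries. In E13.5 Ctrl against E9.5 Ctrl, 40 were higher and 9 lower by limma at an adjusted p under 0.05, which is 57.97% and 13.04% of the 69 and 30.3% and 6.818% of the 132. Of all 12546 genes tested, 22.3% were called higher and 26.4% were called lower. In E13.5 1Runx1 against E9.5 1Runx1, which has 2 libraries on each side, 42 were higher and 7 lower, where 28.6% and 30.8% of all genes were called. Against liver the counts were balanced, with 29 higher and 28 lower in Ctrl, where 38.6% of all genes were higher and 40.6% lower, and 28 higher and 30 lower in 2Runx1, where 38.7% and 42.6% were called. A low gene can pass the filter through the E13.5 libraries alone, so the count among the 69 is a description.

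The printed promoters show the levels behind these counts. Abcb1a, the drug efflux pump of brain vessels, had 2.996 RPKM in E13.5 Ctrl, 3.878 and 4.25 in E13.5 1Runx1 and 2.998 and 3.5 in E13.5 2Runx1, against 0.3166 and 0.3343 in E9.5 Ctrl and 0.3137 and 0.3744 in Liver Ctrl. Every E13.5 library was above every E9.5 and liver library, and the difference in Ctrl was 1.59 ± 0.112 against E9.5 on the log2(RPKM + 1) scale (SE, limma adjusted p = 2.85e-06). Itih3, a chain that binds hyaluronan, had 3.81 RPKM in E13.5 Ctrl, 3.318 and 2.508 in 1Runx1 and 2.465 and 3.279 in 2Runx1, against 0.3213 and 0.4284 in E9.5 Ctrl and 1.663 and 2.182 in Liver Ctrl. Its difference from E9.5 Ctrl was 1.81 ± 0.172 (adjusted p = 2.105e-05). For both genes no E13.5 library overlapped an E9.5 or liver library.

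The other printed promoters belong to genes that were higher still in adult liver, although their E13.5 peak was not in the liver Ctrl list. Mrc1, the mannose receptor of sinusoids and macrophages, had 33.18 RPKM in E13.5 Ctrl, 30.13 and 21.27 in 1Runx1 and 18.8 and 37.39 in 2Runx1, against 1.55 and 1.726 in E9.5 Ctrl and 678.9 and 673.9 in Liver Ctrl. Its difference was 3.70 ± 0.297 from E9.5 Ctrl (adjusted p = 7.027e-06) and −4.31 from Liver Ctrl. The peak at its start was in the Liver 2Runx1 list and in the E9.5 1Runx1 list. Btnl9, an immunoglobulin family protein, had 7.017 RPKM in E13.5 Ctrl, against 0.3575 and 0.1664 in E9.5 Ctrl and 89.95 and 89.09 in Liver Ctrl. Lrg1, a secreted protein that modulates TGFβ signalling in vessels, had 2.685 RPKM in E13.5 Ctrl, against 0.2893 and 0.3029 in E9.5 Ctrl and 33.68 and 35.66 in Liver Ctrl. Both were higher than in E9.5 Ctrl, by 2.67 ± 0.282 and 1.51 ± 0.235 (adjusted p = 4.042e-05 and 0.0004757). The proteoglycan core gene Srgn had the same pattern of levels, with 19.2 RPKM in E13.5 Ctrl, against 2.146 and 2.62 in E9.5 Ctrl and 348.7 and 402.8 in Liver Ctrl.

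Some of these promoters belong to genes of red blood cells. Rhag, a membrane protein of red cells, had 7.515 RPKM in E13.5 Ctrl, 2.765 and 5.559 in 1Runx1 and 3.248 and 3.424 in 2Runx1, against 0.2535 and 0.1966 in E9.5 Ctrl and 0 in all liver libraries. Kel, a blood group protein, had 5.531 RPKM in E13.5 Ctrl, against 0.07777 and 0.0362 in E9.5 Ctrl. Trim10, a gene of late erythroid cells, had 6.444 RPKM, against 0.1525 and 0.03043. The 14 erythroid markers listed for this work summed to 1226 RPKM in E13.5 Ctrl and to between 484.2 and 1249 over all E13.5 libraries, against 158.8 to 160.9 in E9.5 Ctrl and 36.94 to 38.3 in Liver Ctrl. Of these markers Hbb-bt and Hbb-bs were listed at 0 in all libraries and Hbb-y gave 1064 RPKM of the sum in E13.5 Ctrl. Ter119-positive cells had been sorted out, and the part of red cell RNA or chromatin in these peaks was not tested.

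**Figure D3:**
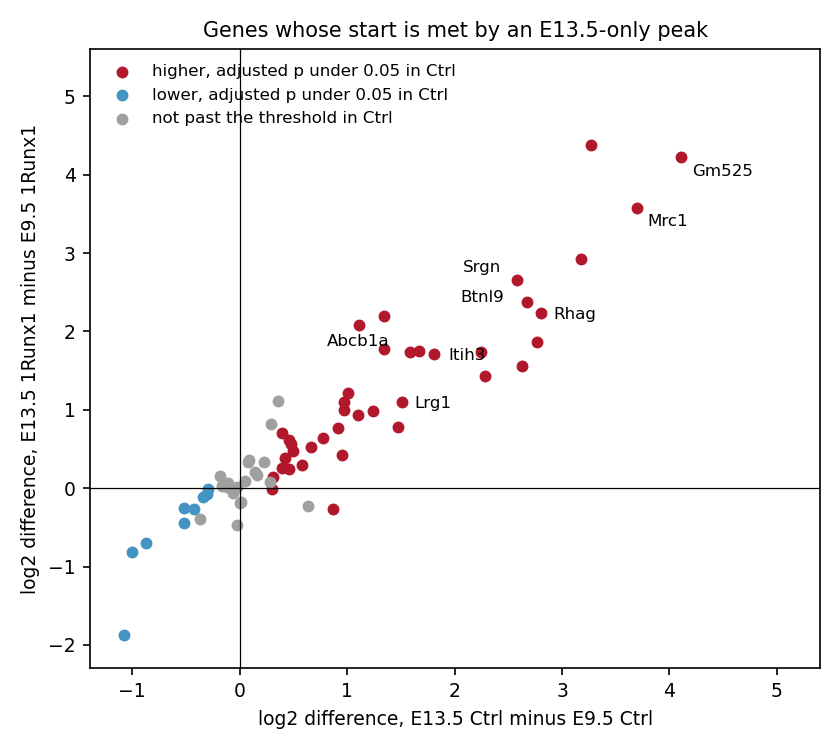
Difference between stages on the log2(RPKM + 1) scale, E13.5 Ctrl minus E9.5 Ctrl across and E13.5 1Runx1 minus E9.5 1Runx1 upward, with a dot for each tested gene whose start is met by an E13.5-only peak, coloured by the limma call in Ctrl. Mrc1 is at 3.70 and 3.58 and Gm525 at 4.11 and 4.22, and most genes called higher in Ctrl are above 0 on both axes.

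Markers of other cells also differed by stage. The 15 hepatocyte markers summed to 262.4 RPKM in E13.5 Ctrl (193.2 to 279.8 over E13.5 libraries), against 19.24 to 20.13 in E9.5 Ctrl and 160.4 to 173.0 in Liver Ctrl. The 16 macrophage markers summed to 79.36 RPKM in E13.5 Ctrl (59.67 to 85.04), against 14.34 to 15.04 in E9.5 Ctrl and 1118 to 1144 in Liver Ctrl, and these markers include Mrc1, which sinusoids also express. Endothelial identity genes summed to 4340 RPKM in E13.5 Ctrl, against 3777 to 3826 in E9.5 Ctrl and 8298 to 8398 in Liver Ctrl, and Ptprc, which codes for CD45, was at 0.3169, against 0 in E9.5 Ctrl and 0.9094 and 0.9675 in Liver Ctrl. Libraries also differed in Xist, the RNA of the inactive X: it was at 6.336 RPKM in E13.5 Ctrl and near 0 in E13.5 1Runx1 replicate 1 (0.009193) and in all liver libraries (at most 0.005229). In E13.5 1Runx1 replicate 2 it was at 5.347. Ddx3y, a gene of the Y chromosome, was at 6.671 RPKM in E13.5 Ctrl and at 17.61 and 0.01776 in E13.5 1Runx1 replicates 1 and 2. In the liver libraries Ddx3y was at 32.84 to 37.11, so sex cannot be told apart from stage and tissue against liver. Xist has a promoter met by a member, and the part of sex in the peaks was not tested. Without the 12 tested genes of the lists of other cell types, 599 and not 607 of the genes with 3 or more members were higher in E13.5 Ctrl than in E9.5 Ctrl. Leaving out 12 genes could lower the count by at most 12, and other transcripts of such cells were not tested.

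Across all protein-coding genes, those with more members were more often higher at E13.5 than at E9.5. Of 1859 tested genes with 3 or more members, 607 (32.65%) were higher in E13.5 Ctrl than in E9.5 Ctrl and 398 (21.41%) lower, while 592 such genes were below the filter. By number of members, 18.38% of the genes with 0 were higher, 25.73% with 1 to 2, 30.98% with 3 to 5, 34.84% with 6 to 9 and 40.0% of the 165 genes with 10 or more. The shares that were lower were 29.51%, 26.25%, 21.33%, 24.34% and 14.55%. The median log2 difference was −0.064 with 0 members and 0.151 with 10 or more. In 1Runx1 the shares that were higher were 25.32%, 31.68%, 34.43%, 40.33% and 41.21%.

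Against liver no such step was seen on the higher side. The shares of genes higher in E13.5 Ctrl than in Liver Ctrl were 39.25%, 40.17%, 40.16%, 40.33% and 36.36%, and the shares lower were 39.31%, 41.69%, 43.37%, 42.24% and 49.7%. In 2Runx1 against its liver group, 39.69% of genes with 0 members and 36.36% of those with 10 or more were higher. Of the 607 genes higher than E9.5 in Ctrl, 520 (85.67%) were also higher in 1Runx1, which is 76.92% of the 676 called there. Those comparisons share no library, but both came from the same fit, with 1 spread per gene over the groups, so their calls are not independent. Of the genes lower than E9.5, 398 in Ctrl and 514 in 1Runx1, both calls held for 321. The stage effect itself differed between 1Runx1 and Ctrl in 48 of the 1859 genes with 3 or more members (2.582%, limma interaction), against 2.26% of all genes. For the effect against liver, 2Runx1 differed from Ctrl in 196 (10.54%), against 11.1% of all genes.

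**Figure D4:**
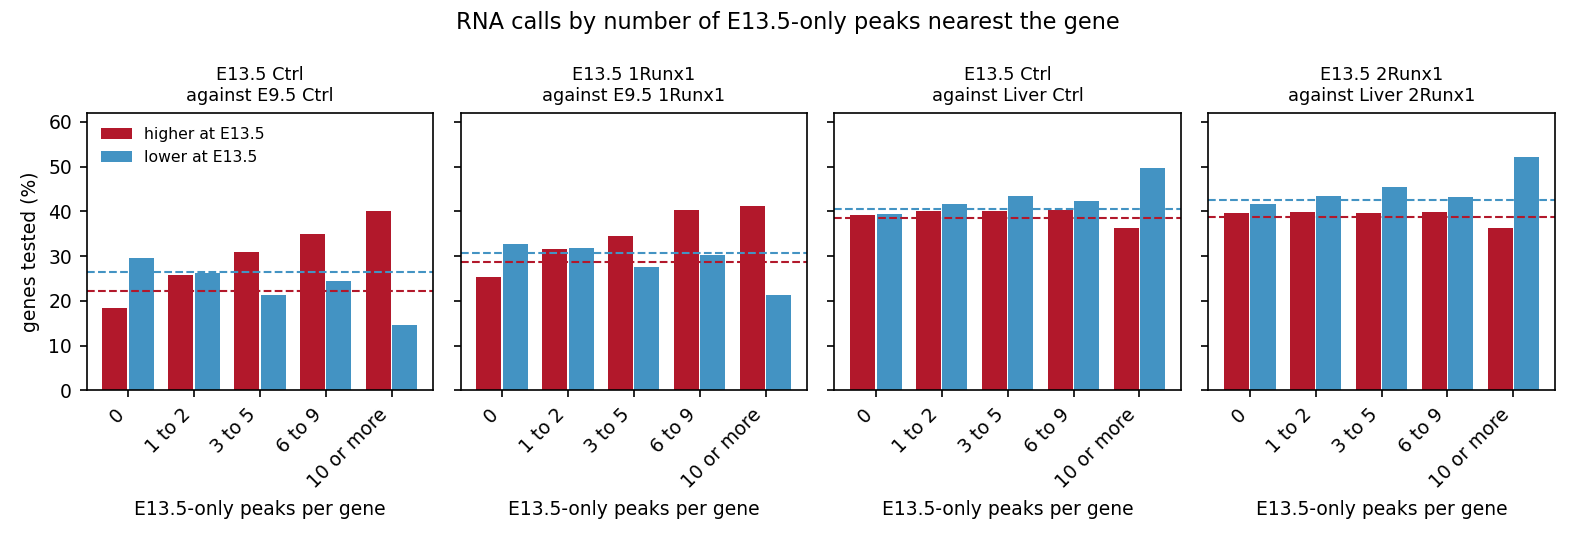
Share (%) of tested protein-coding genes called higher or lower by limma, by the number of E13.5-only peaks nearest to their start, for the comparisons with E9.5 and with liver, with the share over all genes tested as dashed lines. Against E9.5 Ctrl the higher share climbs in steps to 40.0%, and against Liver Ctrl it stays between 36.36% and 40.33%.

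Other ways to sort the genes were set beside this, since genes with many peaks of any kind may differ from genes with few. Sorted instead by E9.5 Ctrl peaks with no E13.5 counterpart, the shares higher at E13.5 were 21.24% with 0 and 26.02% with 10 or more, and the shares lower were 27.93% and 31.3%. Among genes with no member, sorting by peaks shared with E9.5 gave 16.75% higher with 0, 22.85% with 3 to 5 and 15.94% with 6 to 9. Among genes with at least 10 E13.5 Ctrl peaks, those with under 10% of them E13.5-only were higher in 21.21% and lower in 33.0%, and those with 30% or more were higher in 36.14% and lower in 16.01%. Of 195 genes with at least 5 more members than E9.5-only peaks, 46.15% were higher and 14.87% lower. Of 345 genes with at least 5 fewer, 22.03% were higher and 37.68% lower. Counting only members also in both E13.5 Runx1 lists, 19.95% of genes with 0 were higher and 38.46% of those with 3 to 5.

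The 15 genes with most members carried 46 to 128 E13.5 Ctrl peaks each. Most were long genes, but Klf6 (chr13:5861489-5870393) and Gm5148 (chr3:37714190-37724360) were short. Adgrl2, an adhesion receptor, had 34 members among 128 E13.5 Ctrl peaks. It had 33.13 RPKM in E13.5 Ctrl, against 26.0 and 26.78 in E9.5 Ctrl and 91.05 and 78.79 in Liver Ctrl. The difference from E9.5 was 0.32 ± 0.107 (adjusted p = 0.0313), and in 1Runx1 it did not pass (0.11, adjusted p = 0.308). Tcf4, an E-box binding transcription factor, had 29 members and rose to 39.28 RPKM in E13.5 Ctrl, against 21.26 and 21.09 in E9.5 Ctrl (0.86 ± 0.071, adjusted p = 8.413e-06). Its levels were 44.94 and 43.19 RPKM in E13.5 1Runx1, against 22.11 and 20.93 in E9.5 1Runx1. No library of one stage overlapped the other for Tcf4.

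Several of the genes next in number also rose against E9.5. Foxp1, a forkhead repressor with 26 members, had 17.95 RPKM in E13.5 Ctrl, against 11.77 and 11.97 in E9.5 Ctrl (0.56, adjusted p = 0.0005746). Plcb4, a phospholipase with 23 members, had 8.339 RPKM, against 4.147 and 4.141 (0.86, adjusted p = 0.0001018). Sema6a, a transmembrane semaphorin with 21 members, had 30.06 RPKM, against 14.08 and 14.63 (1.02, adjusted p = 1.467e-06). Nav3 (21 members, 0.45) and Magi1 (19 members, 0.26) also passed. Auts2, with 28 members, did not: it had 3.61 RPKM in E13.5 Ctrl, against 4.157 and 3.929 in E9.5 Ctrl (adjusted p = 0.3924). Efna5 (21 members), Rybp, Klf6 and Zfhx3 (20 each) and Prkce (19) did not pass either, and Gm5148 (18 members) was lower at −0.48. Fam155a (18 members) was below the filter, at 0.1902 RPKM in E13.5 Ctrl.

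Among genes with 3 or more members, the largest increases over E9.5 Ctrl included scavenger receptor genes and genes of red blood cells and hepatocytes. Cd36, a fatty acid and scavenger receptor with 5 members, had 60.82 RPKM in E13.5 Ctrl, against 2.087 and 1.763 in E9.5 Ctrl (4.40 ± 0.273, adjusted p = 1.175e-06). Ehd3, an endocytic protein of sinusoids and glomeruli, had 147.1 RPKM, against 7.235 and 7.134 (4.18). Stab2, a hyaluronan scavenger receptor of sinusoids, had 60.3 RPKM, against 3.113 and 3.284 (3.87). All 3 were higher again in Liver Ctrl, with 388.4 and 425.1 RPKM for Cd36, 2707 and 2599 for Ehd3 and 827.9 and 705.2 for Stab2. Meox2, a homeobox factor of vessels and mesoderm, was instead highest at E13.5: it had 18.45 RPKM in E13.5 Ctrl, against 0.228 and 0.3377 in E9.5 Ctrl and 0 and 0.1027 in Liver Ctrl (3.92 ± 0.152 against E9.5, adjusted p = 5.693e-08). Its 8 members include a strong peak at chr12:37014313-37014868 (−log10 q 79.7), 93.89 kb from its start and in both E13.5 Runx1 lists.

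The erythroid genes Slc4a1 and Alas2 (4.21 and 3.83), the hepatocyte gene Apoa1 (4.35) and Gm525 (4.11) were also among them, as was Mrc1. Slc4a1 had 27.28 RPKM in E13.5 Ctrl and 6.969 to 15.37 in the other E13.5 libraries, against 0.4408 and 0.6106 in E9.5 Ctrl. Slc4a1, Alas2, Apoa1 and Mrc1 are themselves among the markers summed above, and the part of other cells in their levels was not tested. Decreases were led by Eno1b, at 2.298 RPKM in E13.5 Ctrl, against 86.57 and 86.33 in E9.5 Ctrl (−4.73). Eno1b has a near-identical copy, Eno1, and stood at 40.27 and 41.86 RPKM in E13.5 1Runx1 but 2.585 and 2.85 in E13.5 2Runx1, so its level is uncertain. Hapln1, a matrix link protein of the endocardium, fell to 19.72 RPKM in E13.5 Ctrl, against 177.8 and 175.2 in E9.5 Ctrl (−3.10), and Tmem100, a target of BMP signalling in arteries, fell to 2.88, against 20.48 and 21.51 (−2.50). Hmga2 (14 members, −2.16) and Mycn (8 members, −1.90), both growth genes of early embryos, fell too, so members also lay beside genes with less RNA.

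**Figure D5:**
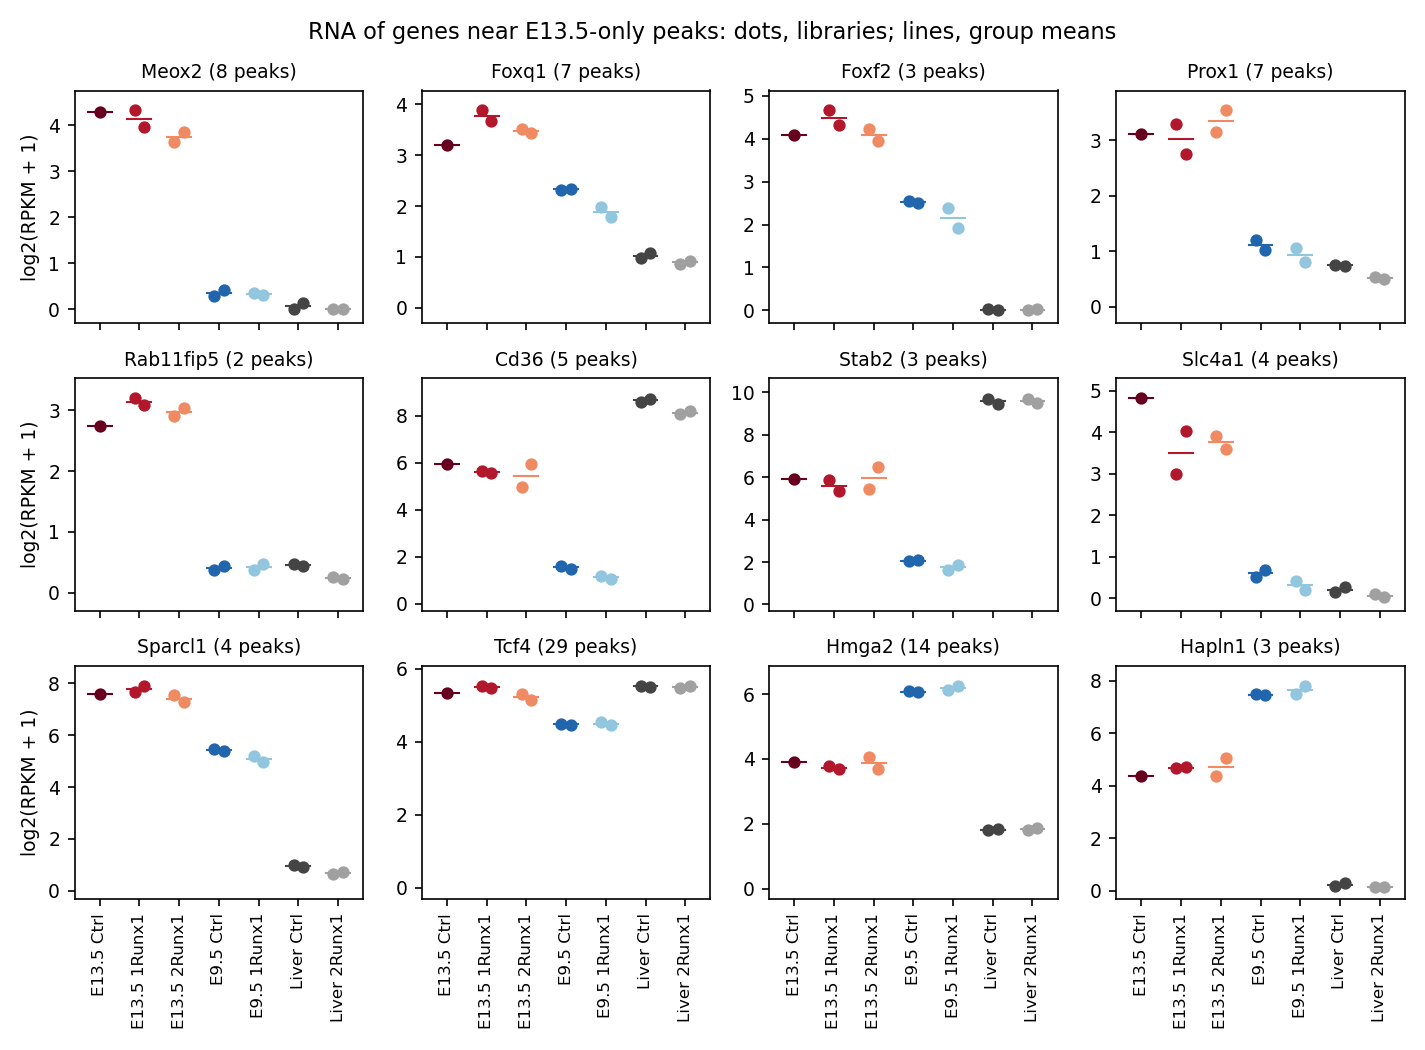
The log2(RPKM + 1) value of each of the 13 RNA libraries (dots) and of each group's mean (lines) for genes with E13.5-only peaks nearest to their start. Meox2 stands at 11.41 to 18.97 RPKM in the E13.5 libraries and at or under 0.3377 in all other libraries.

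Against the adult liver, the largest increases among genes with 3 or more members were in genes of varied function. Col18a1, which codes for the endostatin collagen of basement membranes, had 271.5 RPKM in E13.5 Ctrl, against 0.7334 and 1.009 in Liver Ctrl (7.19 ± 0.085, adjusted p = 3.332e-12). Sparcl1, a matrix protein of vessels, had 190.7 RPKM, against 1.014 and 0.9035 (6.61), and Slc2a1, the glucose transporter of the blood-brain barrier, had 280.5, against 4.845 and 3.85 (5.72). Gap43 (6.00), Igfbp3 (5.77), Igfbp2 (5.47), Cavin3 (5.37), Crmp1 (5.36), Cd34 (5.20) and Col15a1 (5.09) completed the list. The comparison with E9.5 Ctrl uses the same E13.5 Ctrl library, and its values for these genes are given beside: Sparcl1 (2.15) and Col15a1 (1.34) were higher than in E9.5 Ctrl, while Col18a1, Cd34, Crmp1, Gap43 and Slc2a1 were lower than in E9.5 Ctrl. The largest decreases against liver were Xdh (−6.51), Igfbp7 (−5.73), Prelp (−5.68), Tnfsf10 (−5.22) and Gpihbp1 (−5.21). Xdh, a purine enzyme with 4 members, stood at 0.06634 RPKM in E13.5 Ctrl, against 99.87 and 92.6 in Liver Ctrl.

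Gene lists of vessel types and pathways were read beside all 12546 genes, whose median difference from E9.5 Ctrl was −0.02 and −0.06 under quantile normalization. The counts stand beside 22.3% of all genes higher and 26.4% lower than in E9.5 Ctrl, and 28.6% and 30.8% in 1Runx1. Genes of lymphatic and venous vessels were more often higher than lower. In the venous list 5 of 9 tested genes were higher and 0 lower, with a median difference of 0.54, and in the lymphatic list 6 of 9 were higher and 1 lower, with a median of 1.30. In 1Runx1 each list counted 6 higher and 1 lower. Of those with 3 or more members, 5 of 6 venous and 2 of 3 lymphatic genes were higher. The lists share genes: Nr2f2 is counted in both, and Lyve1 and Stab1 are in the lymphatic list and in the sinusoidal list read below. Prox1, the factor that sets lymphatic fate, had 7 members and 7.598 RPKM in E13.5 Ctrl, 8.743 and 5.701 in 1Runx1 and 7.881 and 10.62 in 2Runx1, against 1.305 and 1.022 in E9.5 Ctrl and 0.6895 and 0.6651 in Liver Ctrl. No E13.5 library overlapped the others (1.99 ± 0.217 against E9.5, adjusted p = 4.872e-05), and its strongest member was at chr1:190214446-190215088, 43.95 kb from its start. Nr2f2, the factor of venous fate, had 13 members and 16.29 RPKM in E13.5 Ctrl, against 10.74 and 10.6 in E9.5 Ctrl (0.57, adjusted p = 0.005085). Nrp2, a receptor on veins and lymphatics (11 members, 0.54), Flrt2 (14 members, 0.84), Dab2 (6 members, 0.69) and Selp (3 members, 0.59) also passed, and Itga9, an integrin of lymphatic valves, was lower (7 members, −0.57).

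The arterial list went the other way, with 1 of 16 tested genes higher, 11 lower and a median of −0.37. Its genes had 50 members in all, a count not set against their E13.5 Ctrl peaks of any class. Efnb2, the arterial ephrin ligand, had 15 members and 37.38 RPKM in E13.5 Ctrl, against 57.49 and 58.03 in E9.5 Ctrl (−0.61, adjusted p = 0.003928), and Jag1, a Notch ligand with 13 members, had 15.06, against 14.76 and 14.18 (adjusted p = 0.8629). In 1Runx1 the arterial counts were 2 higher and 6 lower.

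Genes of brain vessels and Wnt response held members in 15 of 18 cases and genes of liver sinusoids in 15 of 16. Of all protein-coding genes 37.62% did, but so did 21 of 24 endothelial identity and 20 of 21 axon guidance genes. How far this follows the number of E13.5 Ctrl peaks of any class near these genes was not tested. In the brain and Wnt list, 8 of 18 were higher and 4 lower than in E9.5 Ctrl, and 15 were higher and 1 lower than in Liver Ctrl, beside 38.6% and 40.6% of the 12546. Foxf2, a forkhead factor of brain pericytes and vessels, had 3 members and 16.02 RPKM in E13.5 Ctrl, against 4.859 and 4.62 in E9.5 Ctrl and 0.0132 and 0 in Liver Ctrl (1.57, adjusted p = 8.398e-05). Its members had a −log10 q of 2.772, 13.64 and 3.446, and none was in another ATAC list, including both E13.5 Runx1 lists. Foxq1, another forkhead factor of brain vessels (0.87), and Slc7a5, an amino acid transporter of the blood-brain barrier (1.72), rose as well. Lef1, a nuclear partner of beta-catenin, fell to 6.508 RPKM in E13.5 Ctrl, against 18.24 and 18.07 in E9.5 Ctrl (−1.35, adjusted p = 5.695e-06). In the sinusoidal list 10 of 16 were higher than in E9.5 Ctrl and 2 lower, with a median of 1.20, and all 16 were lower than in Liver Ctrl. Maf, a transcription factor of sinusoids, had 9.76 RPKM in E13.5 Ctrl, against 1.101 and 1.05 in E9.5 Ctrl and 118.7 and 124.2 in Liver Ctrl, and Oit3 (2.89) and Bmp2, a ligand that sinusoids send to hepatocytes (1.96), were likewise higher than E9.5. All 3 members of Maf were also in the E9.5 1Runx1 list.

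Other lists also held members. Over the whole E13.5 Ctrl list 20.12% of peaks were members, and the share among the peaks near each list was not computed. Axon guidance genes, which also steer vessels, carried 132 members in 20 of 21 genes, and 7 of 19 tested were higher and 7 lower than in E9.5 Ctrl (4 and 7 under quantile normalization), where 22.3% and 26.4% of all genes were. Genes of the TGFβ pathway and its targets carried 107 members in 25 of the 29 genes with coordinates. Of 28 tested, 9 were higher and 7 lower (10 and 5 under quantile normalization). In that list Tgfbr2, a receptor with 13 members, rose to 66.3 RPKM in E13.5 Ctrl, against 39.1 and 35.32 in E9.5 Ctrl (0.82), while Tgfbr3 fell to 19.14, against 29.85 and 28.86 (−0.59), and Fn1, which codes for fibronectin, fell to 81.76, against 301.4 and 292.6 (−1.85). Endothelial identity genes carried 72 members in 21 of 24 genes, and 9 were higher and 3 lower (13 and 2 under quantile normalization). In 1Runx1, 13 of them were higher and 1 lower (16 and 1 under quantile normalization). Pecam1, which codes for CD31, rose to 280.0 RPKM in E13.5 Ctrl, against 156.2 and 163.7 in E9.5 Ctrl (0.80), and Cdh5, which codes for VE-cadherin, to 148.3, against 111.7 and 107.9 (0.43). Endocardial and flow genes counted 3 higher and 6 lower of 12, and hemogenic and stem cell genes 4 and 4 of 16 (3 and 5 under quantile normalization).

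Among genes of other cell types, 10 of 12 tested hepatocyte, 8 of 10 erythroid, 11 of 15 macrophage, 10 of 17 mesenchymal and 5 of 11 pan-haematopoietic genes were higher than in E9.5 Ctrl. Lower counts were 0, 1, 1, 5 and 0, beside 22.3% of the 12546 with more RNA and 26.4% with less. In 1Runx1 the mesenchymal list counted 7 higher and 6 lower. Under quantile normalization the Ctrl counts were 9 higher and 0 lower for the erythroid list and 3 and 1 for the pan-haematopoietic list. The hepatocyte list had 8 members in 4 of 15 genes and the macrophage list 8 in 2 of 16, against 34 members in 12 of 20 mesenchymal genes. These counts were not set against the E13.5 Ctrl peaks of any class near the same genes. The Hox list counted 7 of 18 higher and 2 lower, with a median of 0.07, but 5 and 4 with a median of −0.15 under quantile normalization. In 1Runx1 the Hox counts were 7 and 3, and 4 and 8 under quantile normalization. Neural genes counted 3 higher and 1 lower of 7, muscle genes 2 and 2 of 5, and epithelial genes 0 and 3 of 7. Runx1 itself had 10 members by nearest start, none of them in the E13.5 Ctrl H3K4me1 list. It stood at 1.369 RPKM in E13.5 Ctrl, 28.89 and 23.73 in 1Runx1 and 22.7 and 25.17 in 2Runx1, against 0.915 and 0.9043 in E9.5 Ctrl and 1.185 and 1.531 in Liver Ctrl, and the Ctrl difference from E9.5 did not pass (0.31, adjusted p = 0.061).

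Genes near the strongest members did not all have more RNA. Rab11fip5 rose to 5.694 RPKM in E13.5 Ctrl, against 0.2996 and 0.3607 in E9.5 Ctrl (2.33, adjusted p = 1.492e-07), and Lxn, a carboxypeptidase inhibitor, to 133.5, against 69.59 and 72.28 (0.90). Klf14, beside the top peak, had 0.6802 RPKM in E13.5 Ctrl, against 1.021 and 1.135 in E9.5 Ctrl (adjusted p = 0.1725), and Zfp831, Colq and Plekhg4 were below the filter. Nfatc1 (−0.35), Gm5148 (−0.48) and Dctd (−0.51) were lower than in E9.5 Ctrl.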

How the data were processed

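ATAC-seq and H3K4me1 peaks were deposited as 1 list per group that pools its replicates, each with the authors' score, a −log10 q and a fold enrichment, which is a linear ratio over background. Gene expression was deposited by the authors as RPKM, which scales reads by gene length and library size. The submitters' processing notes name bcl2fastq 2.20, FastQC, Trim Galore 0.6.4, Bowtie2 2.3.5.1, SAMtools 1.1, MACS2 2.1.4, deepTools 3.3.0, STAR 2.7.3a, Subread 2.0.0, featureCounts and edgeR, and the builds mm10 and GRCm38. A shift of ATAC reads for the transposase is not stated there. The RNA kit named in the labels does not mark strand, so antisense partners cannot be told apart.

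The members, gene lists and motifs were chosen with earlier results of these data known. Peaks were compared by overlap of at least 1 bp in Python 3.11.15 (pandas 2.3.3, numpy 2.4.6, scipy 1.17.1) and assigned to the nearest start of a protein-coding gene. Starts came from the RefSeq promoter table for 16688 genes and from gene ends for 4146. RPKM values fitted whole reads, within a tolerance of 0.001 reads, for 99.98% of the 20720 genes above 0, with recovered totals of 36981230 to 43582912 reads per library and 10779 to 11355 genes at 1 RPKM or more.

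Limma 3.58.1 in R 4.3.3 was fitted to log2(RPKM + 1) of the 12546 genes with at least 1 RPKM in at least 2 of 13 libraries, with 7 group means, an intensity trend and 10.3 degrees of freedom in total (6 residual). Tests were two-sided with Benjamini-Hochberg adjustment over all genes and a threshold of 0.05, and the fit was checked on simulated data. E13.5 Ctrl has a single library, which is taken to vary like those of the other groups. Fold changes on this scale understate the change of low genes. Where no comparison is named, a difference and its adjusted p refer to E13.5 Ctrl against E9.5 Ctrl.

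Named are the 10 highest-scoring members, the 15 genes with most members, and among genes with 3 or more members the 10 largest increases and 5 largest decreases against E9.5 Ctrl and against Liver Ctrl, with genes of the lists. Results for 3 of these genes are not reported here. Replicate numbers did not pair samples: deviations of same-numbered libraries correlated at −0.061 to 0.107. Motifs were searched in RefSeq promoter windows, because no genome was used here. Alternatives covered overlap, peak threshold, list length, assignment to genes, pseudocount, filter, quantile normalization, libraries left out and the replicate block.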

Additional observations from a re-analysis of the deposited data

Results flagged for a closer look

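Each value here is a difference between the stage effect in a Runx1 group and the stage effect in Ctrl, on the log2(RPKM + 1) scale, and passed an interaction test in limma at an adjusted p under 0.05. Of 125 named genes tested, 5 differed between 1Runx1 and Ctrl in the effect of E13.5 against E9.5, and 284 of all 12546 genes (2.26%) did. They were Eno1b (3.88), Igfbp7 (1.31), Foxq1 (1.02), Gpihbp1 (0.64) and Apoa1 (−1.27). Foxq1, for example, had 13.72 and 11.71 RPKM in E13.5 1Runx1, against 2.948 and 2.434 in E9.5 1Runx1, and 8.206 in E13.5 Ctrl, against 4.003 and 4.043 in E9.5 Ctrl. Among all genes with 3 or more members, 48 of 1859 (2.582%) differed, a share near that of all genes.

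In the effect of E13.5 against liver, 15 of the 125 differed between 2Runx1 and Ctrl, where 1392 of all genes (11.1%) did. The difference was more positive in 2Runx1 for Fn1 (0.79), Vwf (0.76), Cd34 (0.60), Slc7a5 (0.58), Sox17 (0.52), Ptprb (0.51), Prelp (0.49), Ets1 (0.36) and Nrp1 (0.27). It was more negative for Runx1 (−1.68), Apoa1 (−1.32), Mycn (−1.05), Dctd (−0.97), Sema3a (−0.64) and Nr2f2 (−0.62). Runx1 is the gene the knock-in adds, at 22.7 and 25.17 RPKM in E13.5 2Runx1, against 78.13 and 78.37 in Liver 2Runx1. Among genes with 3 or more members, 196 (10.54%) differed, again near the share of all genes.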

How the results depend on the processing

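The 19427 members were 24290 when only an overlap of at least 50% of the peak counted as shared, 16631 when a gap under 500 bp did, 15452 at a −log10 q of at least 5 in all 3 lists, 11263 with that threshold in the E13.5 Ctrl list alone and 4411 with lists of equal length. The share in E13.5 1Runx1 was 56.8% by overlap of at least 50% and 66.94% at the stricter threshold, in E13.5 2Runx1 32.58% and 42.47%, and in Ctrl H3K4me1 15.53% by that overlap. Within 5 kb of a start lay 10.9% of the members. Placed by the gene body that holds them, members gave 1214 genes with 3 or more, of which 992 were tested: 313 higher and 197 lower than E9.5 Ctrl, 364 and 480 against Liver Ctrl, 359 and 257 in 1Runx1 against E9.5, and 361 and 482 in 2Runx1 against liver.

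Libraries of the compared groups were also left out 1 at a time. Each such fit leaves a single library in a group, so its counts of genes called are not given. With the replicate block, whose numbers do not pair the samples, 577 genes with 3 or more members were higher and 405 lower in Ctrl against E9.5. Neither these counts nor those with 1 library left out differed from the main count by more than 1.5 times. Of 3732 values for named genes, 3553 kept direction and side of the threshold, 125 lost the call, 53 gained it and 1 reversed: Tcf4 in E13.5 Ctrl against Liver Ctrl, −0.18 as reported and 0.04 (adjusted p = 0.6594) under quantile normalization. The causes were not tested. The planned motif windows around peak summits were not run because no genome was used, and no H3K4me1 region was left at a −log10 q of 5. The peak lists carry no read depth, and the single E13.5 Ctrl RNA library limits every Ctrl comparison.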
